A study of Mus musculus with 9 samples.

Results

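Aquaporins are membrane channels for water, and the genes described here are the 5 aquaporins Aqp1, Aqp3, Aqp4, Aqp5 and Aqp7. They were chosen by gene symbol, and all 5 were found among the 20603 genes of the count table. The data are 9 messenger RNA libraries of the mouse conjunctiva, a mucosa of stratified epithelium with goblet cells over a vascular stroma that faces the tear film. Each library pooled the tissue of 3 mice of one genotype and treatment, on a C57BL/6j background. The unchallenged controls carried loxP-flanked Vegfr3 alleles without Cre (labelled Vegfr3 fl/f), were given tamoxifen and were immunized with ovalbumin and pertussis toxin. Challenged controls had the same genotype and treatment and then received ovalbumin in eye drops daily for 28 days. Challenged knockouts, labelled Vegfr3iLECko, had the treatment of the challenged controls and carried Vegfr3 fl/fl with Prox1CreERT2, a tamoxifen-inducible Cre recombinase driven from Prox1, a gene of lymphatic endothelium. All groups had 5 injections of 75 mg/kg tamoxifen at week 5 and immunization at week 6 with 250 µg ovalbumin, 0.3 µg pertussis toxin and 5 mg aluminum hydroxide. Drops of 250 µg ovalbumin in 5 µL went into the right eye from 14 days later, and saline into the other eye. The labels do not say which eye or which animals gave the unchallenged pools, and there was no unchallenged knockout group.

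An aquaporin is a pore of membrane-spanning helices lined by short conserved motifs that let water pass in single file and hold back protons. Aqp1, Aqp4 and Aqp5 carry mainly water, while Aqp3 and Aqp7 belong to the aquaglyceroporins, which also pass glycerol. At the eye surface, Aqp3 lies in the membranes of conjunctival and corneal epithelial cells, and Aqp5 in corneal epithelium and at the apical face of lacrimal gland acini, where tear fluid is secreted. Aqp1 is found in blood vessel endothelium, red blood cells and stromal cells. Aqp4 is anchored by the dystrophin complex in glia and fast skeletal muscle fibres, and Aqp7 lets glycerol leave fat cells.

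Aqp3 and Aqp7 are immediate neighbours among the protein-coding genes in RefSeq's annotation of GRCm38.p6, on the same strand, and Aqp3 had 364342 reads over the 9 libraries where Aqp7 had 114. The 250 bases before the gene start are shown for the pair of aquaporins with the most reads, Aqp3 and Aqp5, which are both genes of surface epithelium and which differ in these bases. The sequences are RefSeq's for GRCm38.p6, read 5′ to 3′ on the gene's strand and ending just before its first base. Capitals mark a match to the TATA box letters TATAAA on either strand.
Aqp3, chr4:41098184-41098433, minus strand: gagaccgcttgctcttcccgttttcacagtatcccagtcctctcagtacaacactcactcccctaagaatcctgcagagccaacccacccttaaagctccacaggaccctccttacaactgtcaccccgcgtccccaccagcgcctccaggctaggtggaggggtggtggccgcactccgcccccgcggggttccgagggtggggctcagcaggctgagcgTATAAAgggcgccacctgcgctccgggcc
Aqp5, chr15:99590778-99591027, plus strand: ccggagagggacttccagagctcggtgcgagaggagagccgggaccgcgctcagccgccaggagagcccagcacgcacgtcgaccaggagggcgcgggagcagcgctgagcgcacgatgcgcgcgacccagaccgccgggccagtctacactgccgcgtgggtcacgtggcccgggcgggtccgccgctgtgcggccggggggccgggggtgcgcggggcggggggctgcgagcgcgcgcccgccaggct
The Aqp3 window had 1 TATAAA, starting 29 bases before the gene, and this motif was present in 12.4% of 32817 windows of the same length. No TATAAA was found in the Aqp5 window. The Aqp5 window was 78.4% G and C with 38 CG dinucleotides, and 98.1% of the windows had fewer. The Aqp3 window was 64% G and C with 14 CG dinucleotides, against a median of 52.4% and 6 over all windows. Windows of Aqp1 and Aqp7 were also searched, and held no TATAAA. Neither the interferon-gamma activated site TTCNNNGAA (in 7.01% of windows) nor the AP-1 site TGANTCA (in 6.75%) was found in a window of Aqp1, Aqp3, Aqp5 or Aqp7. The nuclear receptor half-site AGGTCA (in 14.0% of windows) occurred 1 and 2 times in overlapping windows of Aqp7. The site of the first window is also 1 of the 2 sites of the second. No such site was found for Aqp1, Aqp3 or Aqp5. These matches describe letters only and say nothing of which factors bind.

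The libraries held 16490050 to 24746836 counts each. A gene with 0 counts could therefore lie at up to 0.115 to 0.186 CPM (TMM-scaled CPM, the level of 3 counts). Such floors, and the counting intervals given for Aqp7, describe counting error alone, because no molecular identifiers separate molecules from PCR copies. The deleted gene, listed as Flt4, was at 19.6 ± 6.70, 17.9 ± 3.95 and 7.78 ± 4.49 CPM in unchallenged controls, challenged controls and challenged knockouts (SD, n = 3 pools), the order used for the 3 groups throughout. Its log2 fold change between knockout and control under challenge was -1.195 (SE 0.40) and did not pass over all genes (edgeR adjusted p = 0.468). Keratins of conjunctival epithelium were abundant in all 9 libraries, with Krt13 at 2127 to 4199 CPM, and Krt12, the keratin of corneal epithelium, was at 0.852 to 15.5 CPM, both named as defining genes and outside the naming rule. Knockout 1 stood apart by its Meibomian gland genes: the 9 listed ones summed to 1610 CPM there and to 136 to 274 CPM in the other 8 libraries. Knockout 1 also kept the most Flt4 of its group, 12.96 CPM against 5.07 and 5.32 CPM in knockouts 2 and 3. Challenged controls had 13.36 to 20.26 CPM of Flt4. Results that turn with that library are given with and without it. The labels do not say how the 3 pools of a group were separated, and p-values measure the spread between pools, which may be partly technical.

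Levels of different genes were compared per kilobase of exon (CPM per kb, GENCODE vM21 exon lengths). In unchallenged controls Aqp3 was at 1064 ± 136, Aqp5 at 52.8 ± 4.60, Aqp1 at 32.9 ± 8.34, Aqp4 at 5.89 ± 3.15 and Aqp7 at 0.402 ± 0.345 CPM per kb (SD, n = 3). Aqp3 was above Aqp5, Aqp5 above Aqp1 and Aqp1 above Aqp4 in 9 of 9 libraries. The step from Aqp3 to Aqp5 was 8.67-fold to 20.9-fold, and that from Aqp5 to Aqp1 1.12-fold to 9.03-fold within a library. Of all aquaporin reads, Aqp3 took 87.9 ± 1.99% in unchallenged controls, 82.8 ± 1.06% in challenged controls and 85.4 ± 3.81% in challenged knockouts (SD, n = 3). Aqp5 took 6.22 ± 0.141%, 10.8 ± 3.23% and 9.05 ± 2.43%.

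**Figure D1:**
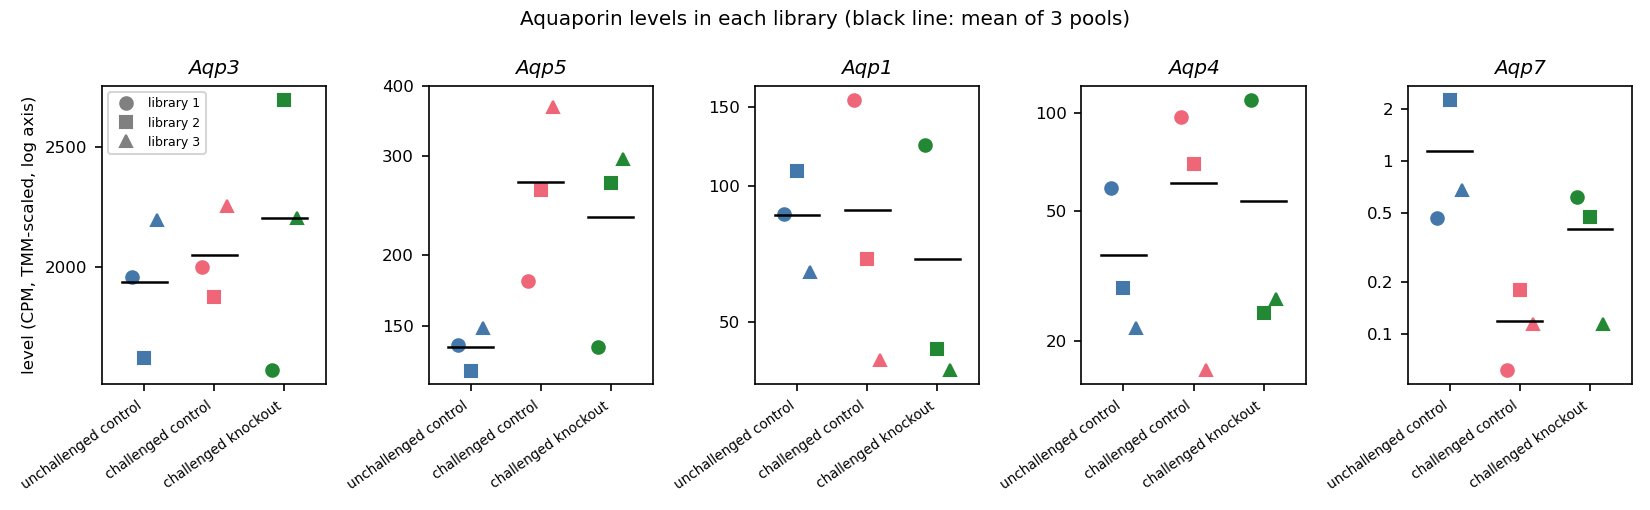
Level of each aquaporin (CPM, log axis, 1 panel per gene) in the 9 libraries by group, with the marker shape for the library number and a black line for the mean of 3 pools. Aqp5 in the 3 challenged controls (180.1 to 367 CPM) lies above the 3 unchallenged controls (125 to 149 CPM), and Aqp7 in the challenged controls (0.0619 to 0.179 CPM) lies below them (0.471 to 2.26 CPM).

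Aqp3, the aquaglyceroporin of the conjunctival epithelium, was the most abundant aquaporin and had the smallest spread of the 5. Aqp3 in unchallenged controls 1 to 3 was at 1966, 1689 and 2185 CPM. The challenged controls, in the same numbering, had 2003, 1893 and 2241 CPM of Aqp3, and the challenged knockouts had 1652, 2731 and 2193 CPM. The groups overlapped, and both the lowest and the highest library were knockouts. With challenge in controls the log2 fold change was 0.07 (SE 0.22, 95% interval -0.43 to 0.57, edgeR adjusted p = 0.957), so the interval of the ratio ran from 0.745-fold to 1.48-fold. Against challenged controls, the knockouts had an Aqp3 log2 fold change of 0.10 (SE 0.22, 95% interval -0.40 to 0.60, edgeR adjusted p = 0.908). Neither sign was stable: the first value was -0.020 without unchallenged control 2 and -0.00073 without challenged control 3, and the second was -0.087 without knockout 2. The pooled within-group SD of log2 CPM was 0.25, and 34.6% of the 14164 tested genes with a mean of at least 1 CPM had a smaller one.

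Aqp5, a water channel known from corneal epithelium and lacrimal acini, had a fitted ratio of 1.96 between challenged and unchallenged controls. This difference did not pass over all genes. Unchallenged controls 1 to 3 had 138, 125 and 149 CPM of Aqp5. Challenged controls 1 to 3 were at 180.1, 262 and 367 CPM, and challenged knockouts 1 to 3 at 138, 269 and 297 CPM. All 3 challenged controls lay above all 3 unchallenged controls, while knockout 1 lay within the unchallenged range. The means were 137 ± 12.0, 269.6 ± 93.8 and 234 ± 85.1 CPM (SD, n = 3), so the spread was wider in both challenged groups. With challenge in controls the log2 fold change of Aqp5 was 0.97 (SE 0.31, 95% interval 0.27 to 1.68, edgeR adjusted p = 0.220). Each challenged control was higher than the unchallenged control of the same number, in 3 of 3 pairs, and the edgeR adjusted p with the number as a block was 0.0837. By DESeq2 it was 0.0606.

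The challenged knockouts did not differ detectably from the challenged controls in Aqp5 (log2 fold change -0.20, SE 0.31, 95% interval -0.90 to 0.49, edgeR adjusted p = 0.857). This interval includes a ratio of 0.537 as well as one of 1.41. The value turned to 0.071 without knockout 1 and to 0.090 without challenged control 3. Against unchallenged controls the knockouts had a log2 fold change of 0.77 (SE 0.31, edgeR adjusted p = 0.999), and this comparison shares its reference samples with the first one. Counted against Aqp3 in the same library, which needs no scaling between libraries, Aqp5 had 6.80 to 7.39 reads per 100 Aqp3 reads in the unchallenged controls. Challenged controls 1 to 3 had 8.99, 13.8 and 16.4 such reads, and the knockouts, in the same numbering, had 8.33, 9.84 and 13.5. All 6 challenged pools thus lay above all 3 unchallenged pools in the Aqp5 to Aqp3 ratio, which is a description without a test. Knockout 1 did so with Aqp5 within the unchallenged range (138 CPM) and the lowest Aqp3 of the 9 libraries (1652 CPM). How many other genes would separate in such a ratio was not counted.

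Marker genes of the cells known to carry Aqp5 are given beside it. Of the corneal epithelium list, 5 of 6 genes were analysed. They summed to 1898 to 4420 CPM in unchallenged controls, 1343 to 2320 CPM in challenged controls and 2037 to 4234 CPM in challenged knockouts. Most of that sum was Aldh3a1, at 2429 ± 1166, 1337 ± 410 and 2635 ± 1003 CPM (SD, n = 3). Krt12, the keratin of corneal epithelium, was at 0.852 to 15.5 CPM. Only 3 of the 10 lacrimal acinar genes were analysed, and they summed to 320.1 to 511 CPM, 457 to 494 CPM and 388 to 399 CPM in the 3 groups. Most of this was Slc12a2, an ion transporter of many secretory epithelia, at 406 ± 91.3, 443 ± 29.4 and 367 ± 11.1 CPM. Lyz1, a lysozyme, was at 28.2 ± 25.01, 36.7 ± 10.2 and 26.6 ± 5.52 CPM (SD, n = 3). Surface epithelium genes (11 of 11) summed to 25690.2 to 44813 CPM, 24922 to 44970 CPM and 25213 to 53602 CPM in the 3 groups, ranges that overlap. Over the 9 libraries Aqp5 had Pearson correlations of 0.17, 0.19 and 0.65 with the corneal, lacrimal and surface epithelium sums. The part of each cell type in the Aqp5 difference was not tested, nor was which cells gave the Aqp5 reads. In bulk tissue, fewer cells of a type and less RNA per cell cannot be told apart.

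Aqp1, the channel of endothelium, red blood cells and stromal cells, varied several-fold between pools of one group and showed no difference between groups beyond that spread. Unchallenged controls 1 to 3 had 86.7, 108 and 64.5 CPM of Aqp1. The challenged controls, in the same numbering, had 156, 68.8 and 41.1 CPM, and the challenged knockouts 124, 43.5 and 38.9 CPM. Library 1 was the highest in both challenged groups, and the 3 groups overlapped. The log2 fold change was 0.04 with challenge (SE 0.53, edgeR adjusted p = 0.994) and -0.36 between knockout and control under challenge (SE 0.53, edgeR adjusted p = 0.851). The first turned to -0.037 with upper-quartile factors, to -0.21 with the replicate block and to -0.65 or -0.14 without challenged control 1 or unchallenged control 3, and the second to 0.32 without challenged control 1. Without knockout 1 the second was -1.10 (edgeR adjusted p = 0.449). The intervals were wide, from 0.45-fold to 2.33-fold with challenge.

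The level of Aqp1 ran against that of the surface epithelium, as did that of Aqp4 (Pearson correlations -0.88 and -0.85 over the 9 libraries). The 5 libraries with the most surface epithelium RNA (33574 to 53602 CPM) had 38.9 to 68.8 CPM of Aqp1, and the other 4 (24922 to 30248 CPM) had 86.7 to 156 CPM. The 14 blood endothelium genes summed to 308 to 483 CPM in unchallenged controls, 258 to 298 CPM in challenged controls and 232 to 486 CPM in challenged knockouts. Red cell genes (7 of 7) summed to 50.8 to 85.8 CPM, 56.9 to 82.2 CPM and 30.1 to 160.2 CPM in the same order. Challenged control 1, which had the most Aqp1, had the second lowest blood endothelium sum of the challenged libraries, 258 CPM. Knockout 1 and unchallenged controls 2 and 1, next in Aqp1, had the highest such sums of the 9 libraries, 486, 483 and 335 CPM. None of these cell types was tested as the source of Aqp1.

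Aqp4, the water channel of glia and fast muscle fibres, was the most variable of the abundant members, and its high pools were found in all 3 groups. Aqp4 in unchallenged controls 1 to 3 was at 59.1, 29.1 and 22.05 CPM. Challenged controls 1 to 3 were at 97.4, 69.7 and 16.3 CPM, and challenged knockouts 1 to 3 at 110.1, 24.4 and 27.0 CPM. Library 1 was the highest of its group in 3 of 3 groups. Its pooled within-group SD of log2 CPM was 1.14, and 97.3% of the tested genes with a mean of at least 1 CPM had a smaller one. With challenge the log2 fold change of Aqp4 was 0.74 (SE 0.72, 95% interval -0.86 to 2.33, edgeR adjusted p = 0.789). Against challenged controls, the Aqp4 value of the knockouts was -0.18 (SE 0.71, 95% interval -1.77 to 1.41, edgeR adjusted p = 0.953). That value was -1.25 without knockout 1 and 0.32 without challenged control 1, and it was also above 0 without knockout 2 (0.17) or knockout 3 (0.14), so single pools decided its sign. Without knockout 1 the log2 fold change of Aqp4 between knockouts and unchallenged controls also turned, from 0.55 to -0.51.

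The 4 pools with most Aqp4 were also the 4 with the most goblet cell RNA. The goblet list, 7 of whose 8 genes were analysed, is led by the gel-forming mucin Muc5ac. It summed to 703 CPM in unchallenged control 1, 521 and 1165 CPM in challenged controls 1 and 2, and 1099 CPM in knockout 1. In the other 5 libraries the goblet sum was 192 to 326 CPM, and Aqp4 was at 16.3 to 29.1 CPM. Aqp4 had a Pearson correlation of 0.86 with the goblet sum and, like Aqp1, ran against the surface epithelium sum (-0.85). Muscle genes did not run with Aqp4: the 17 analysed summed to 3746 CPM in knockout 1 but to 1382 and 907 CPM in challenged controls 1 and 2, among the lowest of the 9 libraries. Glial genes (8 of 8 analysed) did not run with Aqp4 either. Their sums were 231, 258 and 351 CPM in unchallenged controls 1 to 3, 222, 319 and 315 CPM in challenged controls 1 to 3, and 281, 339 and 327 CPM in knockouts 1 to 3. Mbp, a myelin protein, was the most abundant of them, at 263 ± 63.8, 272 ± 53.6 and 300.3 ± 34.9 CPM in the 3 groups, and Gfap, a glial filament gene outside the naming rule, was at 0.0525 to 1.09 CPM. In GENCODE vM21 the Aqp4 locus overlaps 1 antisense gene, and without strand information reads of both cannot be told apart. Which cells gave the Aqp4 reads was not tested.

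**Figure D2:**
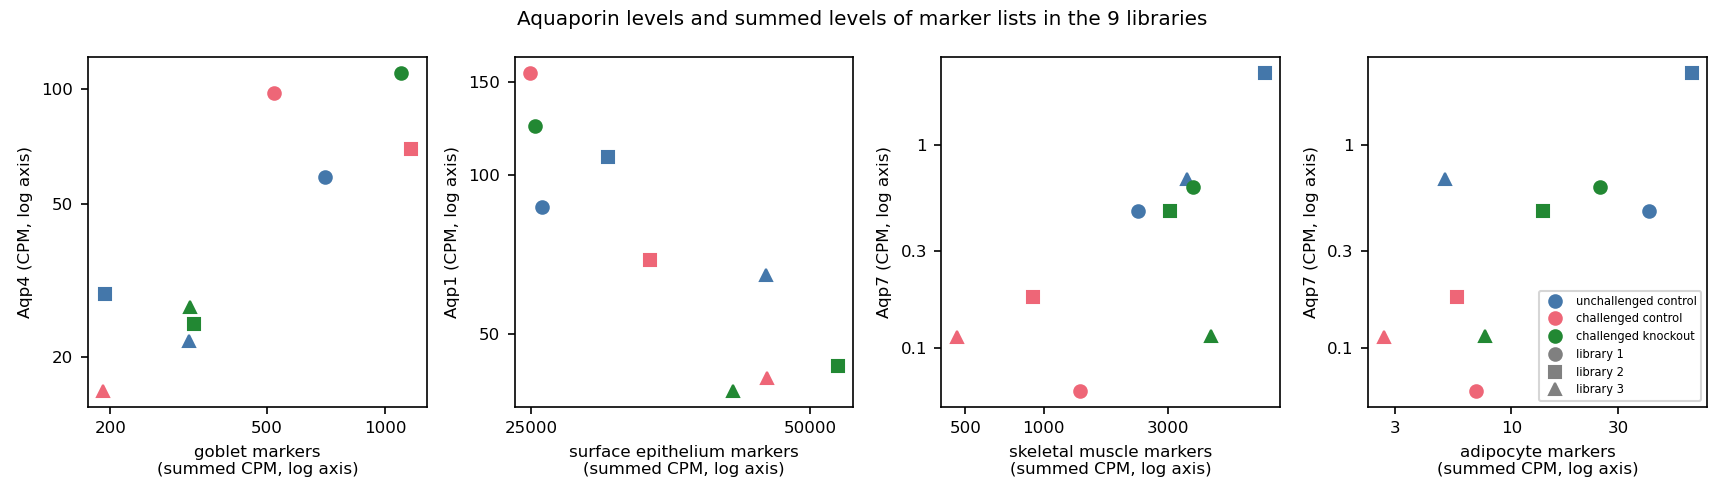
Level of Aqp4, Aqp1 or Aqp7 (CPM, log axis) against the summed level of a marker list (summed CPM, log axis) in the 9 libraries, with colour for the group and marker shape for the library number. The 4 libraries with over 500 CPM of goblet genes hold the 4 highest Aqp4 values, Aqp1 is lower in the 5 libraries with the most surface epithelium (38.9 to 68.8 CPM) than in the other 4 (86.7 to 156 CPM), and the 4 lowest Aqp7 values (0.0619 to 0.179 CPM) are those of the 3 challenged controls and knockout 3.

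Aqp7, the glycerol channel of fat cells, was at the limit of detection in challenged controls and higher in unchallenged controls, on few reads. It had 9, 59 and 13 reads in unchallenged controls 1 to 3 (0.471, 2.26 and 0.682 CPM), 1, 4 and 2 reads in challenged controls 1 to 3 (0.0619, 0.179 and 0.114 CPM) and 16, 8 and 2 reads in challenged knockouts 1 to 3 (0.623, 0.472 and 0.114 CPM). Every unchallenged control was above every challenged control, and knockout 3 was as low as a challenged control. Summed over groups, 81 against 7 reads gave a 10.1-fold ratio (exact binomial 95% interval 4.68 to 25.9). Without unchallenged control 2, which held most of those reads, 22 against 7 reads gave 4.61 (1.90 to 12.8). The fitted log2 fold change of Aqp7 was -3.17 (SE 0.87, edgeR adjusted p = 0.160), and -2.18 without unchallenged control 2. DESeq2 called it (log2 -3.23, adjusted p = 0.0371), while the edgeR adjusted p with the replicate block was 0.0901. Aqp7 reached the level that the count filter asks for, 0.544 CPM, in 2 unchallenged controls, 1 knockout and 0 challenged controls. It was thus tested only because of the groups in which it was higher.

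In the challenged knockouts Aqp7 had 26 reads against 7 in challenged controls, or 3.46-fold (exact binomial 95% interval 1.46 to 9.44). Its log2 fold change there was 1.70 (SE 0.90, 95% interval -0.31 to 3.71, edgeR adjusted p = 0.652), and 1.22 without knockout 1. The groups overlapped. Genes of muscle and of fat, tissues next to the conjunctiva, were also lowest in challenged controls on average. The 17 muscle genes summed to 2299 to 7087 CPM in unchallenged controls, 464 to 1382 CPM in challenged controls and 3054 to 4416 CPM in knockouts. Fat cell genes (8 of 8 analysed) summed to 5.04 to 64.1 CPM, 2.68 to 6.93 CPM and 7.60 to 24.8 CPM in the same order. Unchallenged control 2, with the most Aqp7, had the highest sum of both lists. Not every pool followed: unchallenged control 3, with 0.682 CPM of Aqp7, had 5.04 CPM of fat cell genes, and knockout 3, with 0.114 CPM, had 4416 CPM of muscle genes. Adipoq, the adiponectin gene that defines fat cells, named for that role and outside the naming rule, was at 4.21 CPM in unchallenged control 2 and at 0.0570 to 0.433 CPM in the challenged controls, and it had 0 reads in knockout 3. Their part in the Aqp7 difference was not tested.

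Of the other 7 aquaporin genes listed, 5 were found and 2, Aqp6 and Aqp12, were not analysed here. Aqp9, an aquaglyceroporin of liver and leukocytes, averaged 1.25 ± 0.745 CPM in unchallenged controls, 3.05 ± 2.04 CPM in challenged controls and 1.62 ± 1.80 CPM in knockouts (SD, n = 3). Its highest library in each group was library 1, at 1.99, 5.32 and 3.70 CPM, as for Aqp4. The log2 fold change of Aqp9 with challenge was 1.29 (SE 0.83, edgeR adjusted p = 0.622). In GENCODE vM21 the Aqp9 locus overlaps 2 genes, an antisense gene and a processed pseudogene. As for Aqp4, reads of overlapping genes cannot be told apart without strand information. Aqp11, an intracellular aquaporin, was at 0.892 to 1.05 CPM in unchallenged controls and 0.456 to 0.717 CPM in challenged controls, which did not overlap, and at 0.0590 to 1.48 CPM in knockouts (log2 -0.73, SE 0.81, edgeR adjusted p = 0.829 with challenge). Aqp2, the vasopressin-regulated channel of the kidney, had 18 reads in all, and Aqp8 had 15. Mip, the aquaporin of the lens, had 0 reads in unchallenged controls, which allows up to 0.115 to 0.157 CPM per library, and 7 and 5 reads in challenged controls and knockouts. Aqp2, Aqp8 and Mip had too few counts to be tested.

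None of the 5 members passed an edgeR adjusted p of 0.05 in any of the 3 contrasts. Ovalbumin challenge in controls moved few genes by this test: 10 of 15613 (0.064%) passed, 9 higher and 1 lower, and 267 (1.71%) passed with the replicate block. Before adjustment 2 of 5 members, Aqp5 and Aqp7, had an edgeR p under 0.05, against 12.4% of all genes tested, and DESeq2 called 1 of 5, Aqp7, against 4.94%. The same 2 of 5 had groups that did not overlap, against 15.7% of all genes (7.21% higher, as Aqp5 was, and 8.5% lower, as Aqp7 was). Aqp7 entered through the filter as described above. Single libraries moved that count of 10 genes by over 1.5 times. Leaving out unchallenged control 1 gave 121 genes, and leaving out unchallenged control 2 or 3 gave 0. The count fell to 1 when challenged control 3 was left out and was 35 when challenged control 2 was. It was 5 with knockout 3 left out and 6 with knockout 1 left out.

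The comparison of knockout with control under challenge bears on loss of lymphatic Vegfr3 in challenged tissue. Only the knockouts carried the Cre, and no group carried it with Vegfr3 intact. Effects of the Cre and of Vegfr3 loss therefore cannot be told apart. This comparison had 0 of 15613 genes past the threshold (0%) by edgeR and 1325 before adjustment (8.49%). DESeq2 called 231 (1.49%), and 22 passed with the replicate block (0.141%). Of the 5 members, 0 had an unadjusted edgeR p under 0.05, 0 were called by DESeq2 and 0 had groups that did not overlap, against 12.9% of all genes (6.7% higher and 6.24% lower). Without knockout 1, 1 of 5, Aqp1, had an unadjusted edgeR p under 0.05, against 11.1% of all genes. Of all 7 aquaporins tested, 3 had such a p in that fit, all lower, and 0 passed after adjustment. Their median log2 fold change there was -1.10. Challenged knockouts against unchallenged controls had 0 genes past the threshold (0%) by edgeR, 452 before adjustment (2.9%) and 14 by DESeq2 (0.09%). There 1 of 5 members, Aqp5, had an unadjusted edgeR p under 0.05, and 0 of 5 had groups that did not overlap, against 6.59% of all genes (3.26% higher and 3.33% lower). The median log2 fold change of the 5 members was 0.07 with challenge and -0.18 with genotype, beside -0.011 and 0.0027 over all genes tested.

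**Figure D3:**
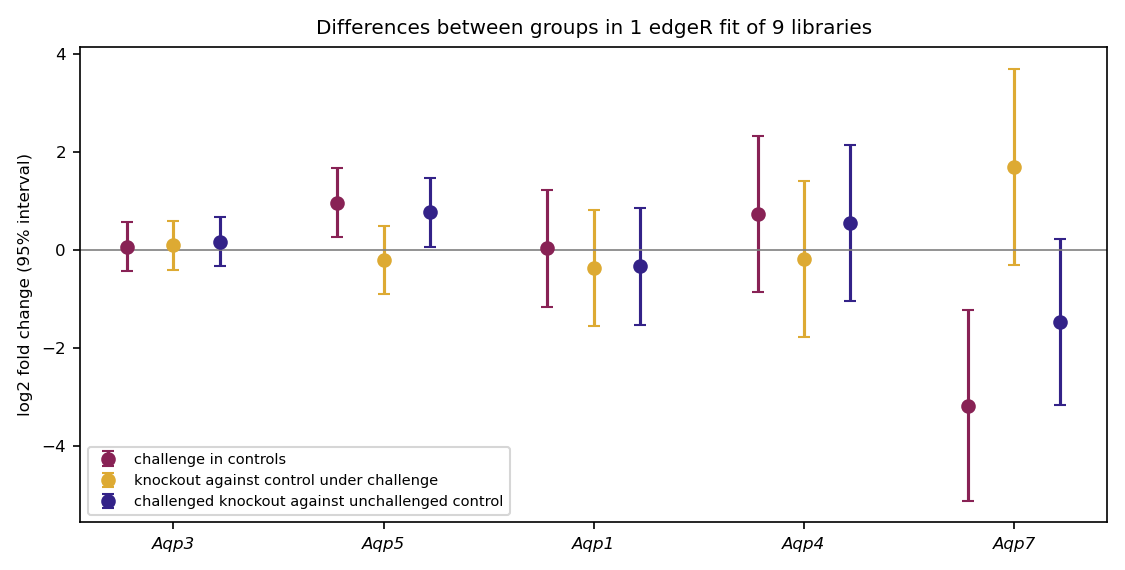
Log2 fold change of the 5 aquaporins with its 95% interval in the 3 contrasts of 1 fit over 9 libraries, before any adjustment for multiple tests. Only the challenge intervals of Aqp5 (0.27 to 1.68) and Aqp7 (-5.12 to -1.23) and the knockout against unchallenged interval of Aqp5 (0.07 to 1.47) leave out 0.

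**Figure D4:**
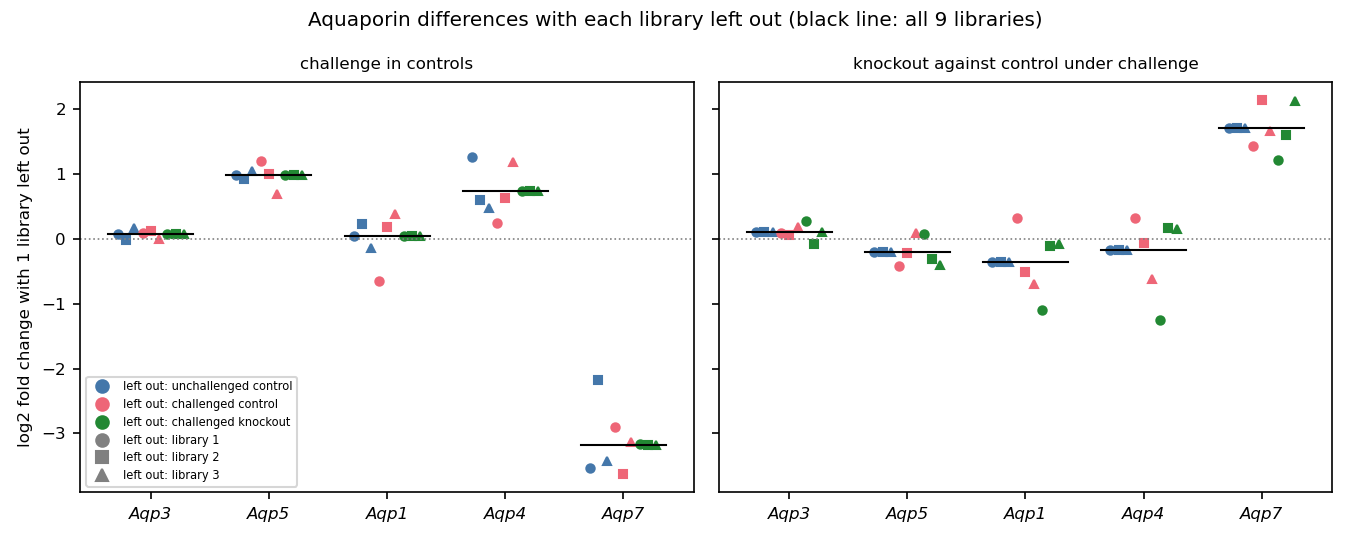
Log2 fold change of the 5 aquaporins when each of the 9 libraries was left out in turn, for challenge in controls (left) and for knockout against control under challenge (right), with a black line for the fit of all 9. With challenge, Aqp5 stayed between 0.69 and 1.198 and Aqp7 between -3.62 and -2.18, while Aqp1 ran from -0.65 to 0.37.

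Among the 5, the epithelial members and Aqp1 ran in opposite directions over the 9 libraries. Aqp1 and Aqp5 had a Pearson correlation of log2 CPM of -0.77, and -0.98 after the group means were removed, over 9 libraries that share their scaling. Aqp1 and Aqp4 had 0.78 (0.87 after removal), and Aqp3 and Aqp5 had 0.64 (0.73 after removal). Aqp7 had -0.70 with Aqp5, which was -0.35 after removal. These correlations describe 9 pools, and all values of a library share its depth and its mix of tissues.

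Genes most like each member were sought among 14164 tested genes with a mean of at least 1 CPM, by Pearson correlation of log2 CPM over the 9 libraries. For Aqp5 they were Irf7, a transcription factor induced by interferon (0.95), Krtcap3 (0.94), Cstb, the protease inhibitor cystatin B (0.94), and Eps8l1, a regulator of actin (0.93). Irf7 had a log2 fold change of 1.96 with challenge (SE 0.48, edgeR adjusted p = 0.125). For Aqp7 they were Sema6c (0.97), Apobec2, a muscle gene (0.95), Sucla2, a citric acid cycle enzyme (0.95), and Coq10a (0.95), and their log2 fold changes with challenge were -1.45, -1.57, -0.31 and -1.34 (edgeR adjusted p = 0.105 to 0.402). None of them is in the fat cell or muscle list. The fat cell and muscle sums had Pearson correlations of 0.74 and 0.70 with Aqp7 over the 9 libraries (Spearman 0.50 and 0.67). The sums of the dystrophin complex, T cell and blood endothelium lists had Pearson correlations of 0.82, -0.79 and 0.72 with Aqp7. These Aqp7 values rest on 1 to 59 reads per library. Aqp1 was most like Gpm6b, a neural membrane protein (0.98), Zfp275 (0.97), Arhgap31 (0.96) and the matrix proteoglycan Vcan (0.96). Aqp3 was most like Tbcd, a tubulin cofactor (0.96), the epithelial adhesion gene Mpzl2 (0.95), Efnb2 (0.95) and the proteasome assembly factor Pomp (0.94). Aqp4 was most like Fnip2 (0.94), the receptor kinase Grk3 (0.94), the copper-carrying protein Cp (0.93) and Mfng, a modifier of Notch (0.93). The best of 14164 genes will always lie high, so these values rank genes and are no test.

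Water follows ions, and genes of epithelial ion transport showed no common direction. Of 13 tested, 0 passed in any contrast by edgeR. With challenge their median log2 fold change was 0.10, beside -0.011 over all genes. Atp1b3, a beta chain of the sodium pump, averaged 521 ± 19.2 CPM in unchallenged controls, 560.3 ± 59.9 CPM in challenged controls and 551 ± 43.3 CPM in knockouts (SD, n = 3). With challenge 3 of 13 had an unadjusted edgeR p under 0.05, against 12.4% of all genes, and these were named after their values were seen. The potassium channel Kcnn4 had a log2 fold change of 0.85 (SE 0.27), and the chloride channel Ano1 and the sodium pump chain Atp1b1 had -0.72 (SE 0.24) and -0.60 (SE 0.21), with edgeR adjusted p of 0.216 to 0.266. Between knockout and control under challenge the same 3 genes had log2 fold changes of -0.77, 0.97 and 0.74. The sodium channel chain Scnn1a had 1.01 there (SE 0.28), and DESeq2 called Ano1 (adjusted p = 0.0213), also chosen after its values were seen. Without knockout 1 DESeq2 called 3 genes of this list there, 2 higher and 1 lower. Both comparisons use the challenged controls, so opposite signs in them are no separate observations.

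Glycerol, which Aqp3 and Aqp7 carry, is taken up into and released from lipid by the 12 genes of the glycerol list, of which 12 were tested and 0 passed by edgeR in any contrast. Gk, glycerol kinase, was at 356 ± 47.6, 517 ± 210 and 357 ± 32.9 CPM in the 3 groups, with a log2 fold change of 0.54 with challenge (SE 0.27, edgeR adjusted p = 0.478). Mgll, the monoglyceride lipase, was at 189 ± 41.8, 169.9 ± 44.9 and 204 ± 31.0 CPM. Gpd1, which makes glycerol 3-phosphate, was at 9.89 CPM in unchallenged and 1.27 CPM in challenged controls (log2 -2.97, SE 0.64). It had an edgeR adjusted p of 0.101, and of 0.0476 with the replicate block, the only glycerol gene past the threshold in that fit. DESeq2 called Gpd1 and Plin1, a coat protein of lipid droplets, lower and Gpd2 higher with challenge (adjusted p = 0.000196, 0.0303 and 0.0388). It called Gpd1 alone, higher, between knockout and control under challenge (adjusted p = 0.0291), where 0 glycerol genes were called without knockout 1. These genes were chosen after their values were seen, and Plin1 is in the fat cell list as well. The group order of Gpd1, with 5.91 CPM in knockouts, was that of the muscle and fat sums given above.

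The dystrophin complex, which holds Aqp4 in the membrane of muscle and glia, had 12 of 12 genes tested and 0 past the threshold by edgeR in any contrast. Dag1, dystroglycan, was at 327 ± 67.0, 273 ± 59.9 and 299 ± 32.7 CPM, and Utrn, the dystrophin relative utrophin, at 158 ± 24.8, 135 ± 9.36 and 137 ± 3.68 CPM, by group in the order above (SD, n = 3). The median of the list was -0.53 with challenge and 0.21 with genotype, and 6 of 12 genes had an unadjusted edgeR p under 0.05, all lower, with challenge, against 12.4% of all genes. DESeq2 called 2 of them lower, the muscle sarcoglycan Sgca (log2 -2.41, DESeq2 adjusted p = 0.000478) and Dtna (log2 -1.41, DESeq2 adjusted p = 0.0234), chosen after their values were seen. Sgca was at 7.94, 1.49 and 7.83 CPM in the 3 groups. Between knockout and control under challenge its log2 fold change was 2.38 (SE 0.53, edgeR adjusted p = 0.314), and DESeq2 called Sgca higher there (adjusted p = 0.00205). Aqp4 did not follow this order, being highest in challenged controls on average and lowest in unchallenged ones. The muscle sums, given above, were likewise lowest in challenged controls, as Sgca was, and their part in it was not tested.

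Genes of the response to osmotic stress gave no calls: of 8 tested, 0 passed by edgeR, 0 had an unadjusted edgeR p under 0.05 and 0 were called by DESeq2 in any of the 3 contrasts. The list median was 0.081 with challenge and -0.0078 with genotype. Slc6a6, the taurine transporter, averaged 429.9 ± 213 CPM in unchallenged controls, 275 ± 63.7 CPM in challenged controls and 429.7 ± 152 CPM in knockouts (SD, n = 3). Sgk1, a kinase induced by osmotic stress and by steroids, was at 189 ± 29.97, 202 ± 11.1 and 216 ± 48.3 CPM.

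Lists of cell type markers were read in the same way, and 1 of them held genes that passed by edgeR. T cell genes had 2 of 9 past the threshold with challenge, Cd8a, the co-receptor of cytotoxic T cells, and Lck, the kinase of the T cell receptor (log2 3.66 and 2.84, edgeR adjusted p = 0.0339 and 0.0246). The T cell sum was 15.1 to 24.6 CPM in unchallenged controls, 84.2 to 175 CPM in challenged controls and 24.6 to 34.7 CPM in knockouts, so the challenged controls, which hold the highest Aqp5 and the lowest Aqp7 on average, also held the most T cell RNA. Its part in either was not tested. The muscle list had 17 of 17 genes lower with challenge at an unadjusted edgeR p under 0.05, of which 0 passed after adjustment, 16 were called by DESeq2 and 5 with the replicate block. For fat cells these counts were 5 of 6 lower, 0, 4 and 3. Over all genes, 12.4% had an unadjusted edgeR p under 0.05 with challenge. Blood endothelium had 5 of 14 lower at an unadjusted edgeR p under 0.05 and 0 called by edgeR or DESeq2. Corneal epithelium had 1 of 4 lower, which DESeq2 and the replicate block also called, and Meibomian gland 1 of 6 lower. In the lists of goblet cells (5 genes tested), surface epithelium (11), red cells (5), lacrimal acini (3), lymphatic endothelium (8), fibroblasts (9) and glia (7), 0 genes had an unadjusted edgeR p under 0.05 with challenge and 0 were called by DESeq2.

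Between knockout and control under challenge, 0 marker genes passed by edgeR. At an unadjusted edgeR p under 0.05, which 8.49% of all genes had, 15 of 17 muscle genes were higher (12 called by DESeq2), 9 of 9 T cell genes lower (7 called by DESeq2), and 5 of 6 Meibomian gland genes higher (0 called by DESeq2). Without knockout 1, where 11.1% of all genes had such a p, 14 of 17 muscle genes were higher (10 called by DESeq2), 9 of 9 T cell genes lower (8 called by DESeq2), and 1 of 6 Meibomian gland genes higher and 1 lower. In the fit of all 9 libraries, fat cells had 2 of 6 higher, corneal epithelium 2 of 4 higher with 1 called by DESeq2, blood endothelium 4 of 14 higher and 1 lower, and lymphatic endothelium 1 of 8 higher, Prox1, whose regulatory sequence drives the Cre (named after its value was seen), and 1 lower, Flt4, the deleted gene. The goblet, surface epithelium, red cell, lacrimal, fibroblast and glia lists had 0. Without knockout 1, fat cells had 0 of 7, corneal epithelium 3 of 4 higher, blood endothelium 2 of 14 higher and 1 lower, lymphatic endothelium 3 of 8 lower, red cells 2 of 5 lower and fibroblasts 5 of 9 lower. No aquaporin is a member of these marker lists. The part of these cell types in the Aqp7 ratio of this contrast was not tested.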

How the data were processed

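Messenger RNA of mouse conjunctiva was measured in 9 libraries, each from tissue of 3 mice, in 3 groups of 3. The authors deposited 1 table of whole-number read counts, unnormalized, with a gene symbol for each of 20603 genes. HISAT2, Bowtie2, DESeq2 and the build mm39 are listed, per the submitters' processing notes. The sources used here give no version, counting program, annotation or library strand.

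After a count filter (edgeR's filterByExpr, given the 3 groups) 15613 genes were tested. A single quasi-likelihood model in edgeR 4.0.16 under R 4.3.3, with TMM factors and no block, took all 9 libraries. Its 3 contrasts give every log2 fold change, SE, 95% interval and p, adjusted by Benjamini-Hochberg over all genes tested and two-sided, unless DESeq2 (1.42.0) or the block is named. The threshold was 0.05. CPM are counts scaled by library size and TMM factor. Alternatives were DESeq2, RLE and upper-quartile factors, no count filter, a fit of only the 2 groups compared, the replicate number as a block, and each library left out.

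The 5 aquaporins and the 18 gene lists were chosen with earlier results of these data known. Named genes were the whole aquaporin family, for each of the 5 members the 4 genes with the most similar log2 CPM (prior count 2, mean CPM at least 1), and for each list its members past the threshold or otherwise its 2 most abundant. Other genes named are said to be outside this rule or chosen after their values were seen. Some genes that this rule would name are not reported here.

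Same-numbered unchallenged and challenged controls deviated together from their group means (correlations 0.245 to 0.488 over all genes tested, above 0.1 in 3 of 3 pairs). The numbers therefore meet the rule set for pairing between the 2 control groups. Same-numbered challenged controls and knockouts had 0.339, -0.147 and 0.334, and unchallenged controls and knockouts 0.318, -0.089 and 0.334. Number 2 thus did not pair with the knockouts. The block was fitted over all 9 libraries unless only 2 groups are named. The values reported come from the fit without the block, and the block is given as an alternative. With challenge, the SE with the block was 0.32 for Aqp1 and 0.38 for Aqp4, against 0.53 and 0.72 without it. The blocked log2 fold change of Aqp4 with challenge was 0.60 (edgeR adjusted p = 0.471). The labels do not say what a number marks. Gene lengths came from GENCODE vM21 and upstream sequences from RefSeq. Both are on GRCm38, so no coordinate was carried to the counts.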

Additional observations from a re-analysis of the deposited data

How the results depend on the processing

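The 18 results were the counts of genes past the threshold in 3 contrasts and the log2 fold changes of 5 aquaporins in each. No aquaporin passed an adjusted p of 0.05 under any alternative except Aqp7 with challenge by DESeq2 (-3.23, adjusted p = 0.0371). The count of genes with challenge was 10, and 753 by DESeq2, 20 without a count filter, 1 with only the 2 groups compared, 267 with the replicate block and 476 with the replicate block in only those 2 groups, a fit added after seeing the data. For knockout against control under challenge it was 0, and 231 by DESeq2 and 22 with the replicate block. For knockouts against unchallenged controls it was 0, and 14 by DESeq2. The replicate block changed no call of an aquaporin. Aqp1 with challenge was 0.04, and turned to -0.037 with upper-quartile factors, -0.21 with the replicate block and -0.16 with the replicate block in only 2 groups. The cause of these turns was not tested.

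Leaving out each library in turn gave 0 to 121 genes with challenge. Log2 fold changes that changed sign were, with challenge, Aqp1 (-0.65 to 0.37) and Aqp3 (-0.020 to 0.17, and -0.00073 without challenged control 3). For knockout against control under challenge they were Aqp1 (-1.10 to 0.32), Aqp3 (-0.087 to 0.27), Aqp4 (-1.25 to 0.32) and Aqp5 (-0.42 to 0.090). For knockouts against unchallenged controls they were Aqp3 (-0.015 to 0.34) and Aqp4 (-0.51 to 1.08). Aqp5 and Aqp7 with challenge kept their sign in 9 of 9 of these fits (0.69 to 1.198 and -3.62 to -2.18). With only the 2 groups compared, Aqp7 could not be fitted for challenge or for genotype because it did not pass the count filter there. The count table's depth limits Aqp7 most, with 1 to 4 reads in each challenged control. Where a fit leaves 2 pools in a group, all groups share the estimate of the spread. Counts of list genes without knockout 1 were added after seeing the data.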
